A study of Mus musculus with 28 samples.

Results

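The 3 Gadd45 genes (Gadd45a, Gadd45b and Gadd45g) and Cdkn1a, which encodes the cell cycle inhibitor p21, were followed in skeletal muscle of mice after interleukin 1b (IL-1b) was injected into the cerebral ventricles. Probe sets were taken whose platform annotation gives a single symbol equal to one of these names, which left 4 probe sets for 4 genes, of 17831 probe sets and 15224 genes named on the array. Muscle was taken 2, 4 or 8 h after the injection. There were 3 IL-1b arrays at 8 h and 5 at each earlier time, beside 5 vehicle arrays per time. Vehicle mice are labelled as injected too, and the labels state the route for IL-1b only. The sources used here give no strain, sex, age, dose or vehicle composition. They also leave unsaid whether arrays come from different mice, so the p-values reflect the spread among these arrays, which may be technical.

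GADD45 proteins are small acidic stress proteins that bind MAP3K4 and MAP2K7, upstream of the p38 and JNK kinases, and also bind PCNA, p21 and the CDK1 and cyclin B complex. They have been linked to growth arrest, DNA repair and active DNA demethylation. In mouse skeletal muscle Gadd45a is known as a gene induced by denervation, fasting and immobilisation, and forced expression of it shrinks fibres. Gadd45b was found as a myeloid differentiation gene and responds to NF-kB and TGF-beta, and Gadd45g responds to cytokines. Cdkn1a is the classical p53 target, is induced in muscle without p53 as well, and holds myoblasts in the state that precedes fusion.

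Gadd45a, Gadd45g and Cdkn1a were higher after IL-1b at 1 or more times, and Gadd45b at none. Gadd45a and Cdkn1a were higher after IL-1b than after vehicle at 8 h, by 1.82-fold and 2.34-fold. Gadd45g and Cdkn1a were higher at 4 h, by 3.05-fold and 1.57-fold. Of 10 fits that each left out 1 array, Gadd45g at 4 h no longer passed in 5 and Cdkn1a in 8. Over all probe sets 0.578% passed as higher at 4 h and 1.02% at 8 h. At 2 h none of the 4 passed the test. In vehicle muscle Cdkn1a fell between 2 and 8 h, Gadd45b rose over the same time, and neither Gadd45a nor Gadd45g passed between any vehicle times.

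All values below are on a log2 scale and centred on the median of each probe set over the 28 arrays, so a value says how an array stands against the others for that gene and carries no level of expression. Genes can therefore not be ranked by level, and the tissue label could not be checked by the presence of muscle transcripts. A difference was called at a limma adjusted p (Benjamini-Hochberg over all probe sets) under 0.01, the false discovery rate that the design text names. SE is the standard error of the model. The SD over probe sets was 0.298 to 0.33 in 3 arrays (vehicle 2 h replicate 7, vehicle 8 h replicate 1 and IL-1b 8 h replicate 22) and 0.114 to 0.223 in the others. A pair of arrays stood apart from their group in genes that respond to the injection. IL-1b 2 h replicate 2 had a centred Selp (P-selectin, an adhesion molecule of activated endothelium) of -0.29, against 2.87 to 3.01 in the other IL-1b 2 h arrays. Vehicle 4 h replicate 5 had a centred Ddit4 (a stress-induced inhibitor of mTORC1) of 1.24, against -1.52 to -1.17 in the other vehicle 4 h arrays. For Ddit4, IL-1b 2 h replicate 2 was the highest of its group, at 1.66 against 1.05 to 1.6 in the others.

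The promoters of the 4 genes are shown so that the sequence around each start can be read beside its transcript's values. The sequences are RefSeq's on GRCm38.p6, from 250 bases before to 50 bases after each annotated start, and all 4 genes were matched by symbol. Capitals mark matches, on either strand, to the 10 motifs searched. These were the TATA box TATAAA, the cyclic AMP response element TGACGTCA, the CCAAT box CCAAT, the GC box GGGCGG, the forkhead motif TGTTTAC, the C/EBP-ATF composite TGATGNAAN, the AP-1 motif TGACTCA, the octamer ATTTGCAT, the glucocorticoid response element and the p53 half-site. The last 2 are given by name. The octamer and the p53 half-site were added after the promoters had been read.
Gadd45a (chr6:67037358-67037657, minus strand): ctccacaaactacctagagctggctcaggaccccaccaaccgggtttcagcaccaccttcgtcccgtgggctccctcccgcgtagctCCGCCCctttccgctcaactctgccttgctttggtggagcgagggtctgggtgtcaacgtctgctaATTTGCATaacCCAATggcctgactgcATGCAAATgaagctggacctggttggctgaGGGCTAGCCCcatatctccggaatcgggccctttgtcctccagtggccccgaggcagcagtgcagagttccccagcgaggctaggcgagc
Gadd45b (chr10:80929841-80930140, plus strand): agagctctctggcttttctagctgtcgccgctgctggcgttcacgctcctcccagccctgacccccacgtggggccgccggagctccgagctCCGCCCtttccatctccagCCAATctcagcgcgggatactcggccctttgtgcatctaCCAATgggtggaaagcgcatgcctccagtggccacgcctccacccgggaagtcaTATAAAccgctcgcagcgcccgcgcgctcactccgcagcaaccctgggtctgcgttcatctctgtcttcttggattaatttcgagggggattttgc
Gadd45g (chr13:51846425-51846724, plus strand): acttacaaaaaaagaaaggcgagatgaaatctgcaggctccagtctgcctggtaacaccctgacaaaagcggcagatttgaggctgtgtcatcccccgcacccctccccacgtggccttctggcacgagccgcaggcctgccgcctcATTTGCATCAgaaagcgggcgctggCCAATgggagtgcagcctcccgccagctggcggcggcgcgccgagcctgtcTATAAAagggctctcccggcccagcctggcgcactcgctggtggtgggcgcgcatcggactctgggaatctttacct
Cdkn1a upstream start (chr17:29090729-29091028, plus strand): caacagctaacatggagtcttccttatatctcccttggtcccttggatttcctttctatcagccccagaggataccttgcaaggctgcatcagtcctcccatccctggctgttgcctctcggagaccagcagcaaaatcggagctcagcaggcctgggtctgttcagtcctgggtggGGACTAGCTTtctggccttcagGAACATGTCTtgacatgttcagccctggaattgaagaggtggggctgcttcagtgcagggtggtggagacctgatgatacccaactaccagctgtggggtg
Cdkn1a downstream start (chr17:29093519-29093818, plus strand): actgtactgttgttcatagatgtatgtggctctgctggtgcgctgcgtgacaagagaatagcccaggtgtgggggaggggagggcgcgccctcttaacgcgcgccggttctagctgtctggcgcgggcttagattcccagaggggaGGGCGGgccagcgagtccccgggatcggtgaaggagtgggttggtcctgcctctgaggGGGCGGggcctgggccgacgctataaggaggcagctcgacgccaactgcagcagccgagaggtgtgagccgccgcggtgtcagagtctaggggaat

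The Gadd45a window holds the octamer on both strands, starting at positions -97 and -70 from the start site, with a CCAAT box between them, and the octamer is present in 1.74% of the 32851 promoters of the table. The Gadd45g window has 1 octamer, which overlaps a match to the C/EBP-ATF composite (present in 3.95% of promoters), and a TATA box that starts at position -27. The Gadd45b window has a TATA box (13.6% of promoters) and 2 CCAAT boxes (37.4%). Cdkn1a has 2 annotated starts. The upstream one has 2 matches to the p53 half-site (8.36%), and the downstream one has 2 GC boxes (35.7%). Gadd45a also has 1 match to the p53 half-site and 1 GC box, and Gadd45b has 1 GC box. None of the 5 windows matches the forkhead motif (3.65%), the AP-1 motif (5.2%), the cyclic AMP response element (1.79%) or the glucocorticoid response element (0.00913%). Because the octamer and the p53 half-site were added after these promoters had been read, their shares do not show how unusual the matches are. A match is a stretch of letters and not a site shown to be bound.

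**Figure D1:**
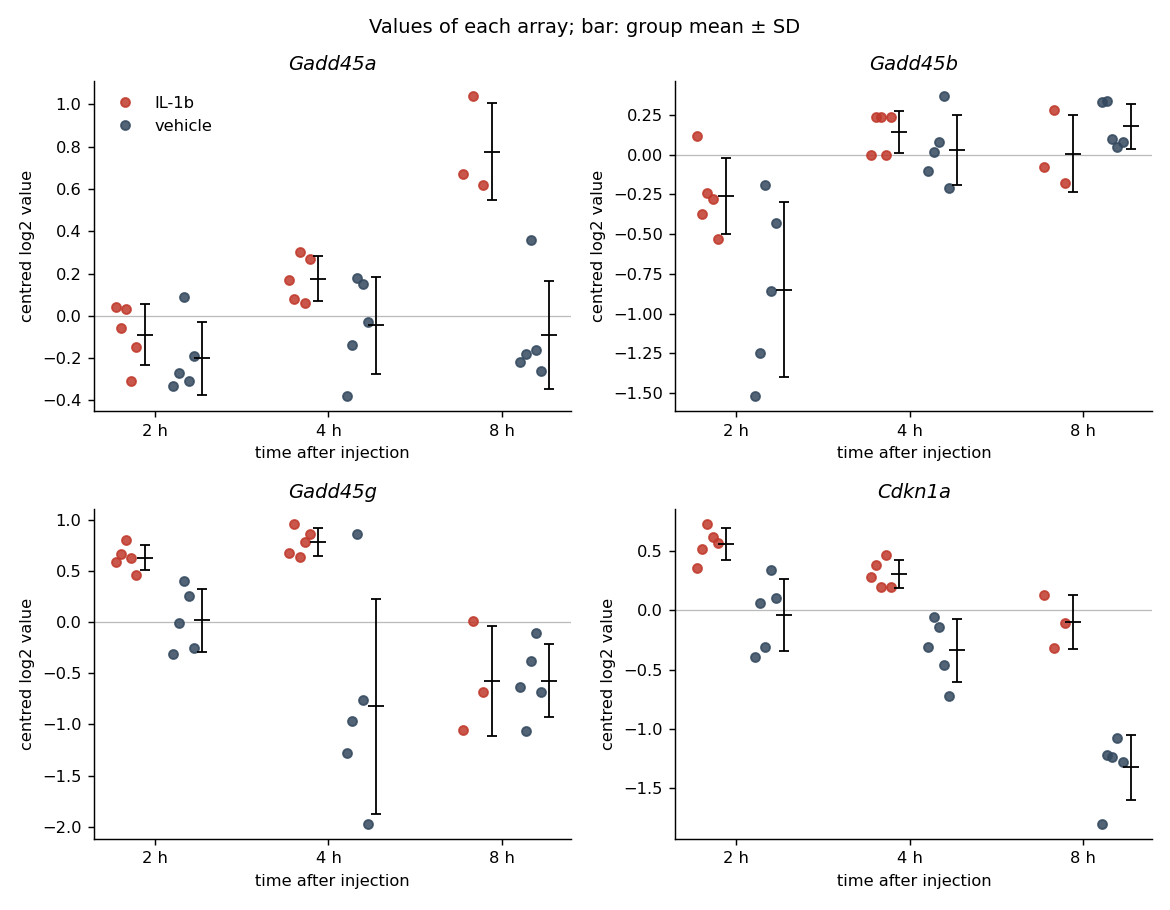
Centred log2 value of each array (vertical axis) for the 4 genes by time after injection, with IL-1b arrays in red, vehicle arrays in dark blue and the group mean ± SD as a black bar. At 8 h the 3 IL-1b arrays lie above all 5 vehicle arrays for Gadd45a and Cdkn1a, and at 4 h vehicle replicate 5 lies among the IL-1b arrays for Gadd45g.

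Gadd45a was higher after IL-1b at 8 h. Its centred values were 0.67, 1.04 and 0.62 in IL-1b 8 h replicates 14, 22 and 26, against -0.22, -0.18, 0.36, -0.16 and -0.26 in vehicle 8 h replicates 1, 9, 13, 17 and 21. All 3 IL-1b arrays lay above all 5 vehicle arrays, although vehicle replicate 13 stood well above the other 4. The means were 0.78 ± 0.23 (SD, n = 3) after IL-1b and -0.09 ± 0.26 (SD, n = 5) in vehicle, and the difference was 0.87 ± 0.14 (SE, 95% interval 0.59 to 1.15, limma adjusted p = 0.000169). Without any single array of the 8 the difference stayed called, between 0.74 and 0.98.

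At the earlier times Gadd45a did not pass. At 4 h it had values of 0.17, 0.08, 0.30, 0.06 and 0.27 after IL-1b (replicates 4, 13, 15, 18 and 22) and -0.38, -0.14, 0.18, 0.15 and -0.03 in vehicle (replicates 1, 3, 5, 7 and 17). The groups overlapped, and the difference of 0.22 had a 95% interval of -0.02 to 0.46 (limma adjusted p = 0.646). At 2 h it had 0.04, -0.06, 0.03, -0.31 and -0.15 after IL-1b (replicates 2, 4, 8, 10 and 12) and -0.33, -0.27, 0.09, -0.31 and -0.19 in vehicle (replicates 1, 5, 7, 9 and 11). That difference was 0.11 (95% interval -0.13 to 0.35, limma adjusted p = 0.721). Vehicle means of -0.20, -0.05 and -0.09 at 2, 4 and 8 h did not differ by the test (limma adjusted p = 0.653 for 4 against 2 h, 0.94 for 8 against 2 h and 0.969 for 8 against 4 h). IL-1b means were -0.09, 0.17 and 0.78 at those times. Gadd45a was higher in IL-1b muscle at 8 h than at 2 h by 0.87 ± 0.14 (SE, limma adjusted p = 0.000104). With a further quantile normalization the 8 h difference between IL-1b and vehicle was 0.65 and no longer called (limma adjusted p = 0.0129), and in a fit to the 8 h arrays alone it was not called either (limma adjusted p = 0.0437).

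Gadd45b did not differ between IL-1b and vehicle by the test at any time, while it rose in vehicle muscle between 2 and 8 h. At 2 h its values were 0.12, -0.37, -0.24, -0.28 and -0.53 after IL-1b and -1.52, -1.25, -0.19, -0.86 and -0.43 in vehicle, in the replicate order given for Gadd45a. Vehicle arrays spread widely and overlapped the IL-1b arrays, with SDs of 0.24 after IL-1b and 0.55 in vehicle. The difference was 0.59 (95% interval 0.23 to 0.95, unadjusted p = 0.00238, limma adjusted p = 0.195). At 4 h it had 0.00, 0.24, 0.24, 0.00 and 0.24 after IL-1b and -0.10, 0.02, 0.08, 0.37 and -0.21 in vehicle, and at 8 h -0.08, 0.28 and -0.18 after IL-1b and 0.33, 0.34, 0.10, 0.05 and 0.08 in vehicle. Groups overlapped at both times. The differences were 0.11 (95% interval -0.25 to 0.47, limma adjusted p = 0.941) at 4 h and -0.17 (95% interval -0.59 to 0.24, limma adjusted p = 0.877) at 8 h.

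Vehicle Gadd45b averaged -0.85, 0.03 and 0.18 at 2, 4 and 8 h. All 5 vehicle arrays at 8 h lay above all 5 at 2 h, and the rise was 1.03 ± 0.17 (SE, 2.04-fold, limma adjusted p = 0.00116). Leaving out any 1 of the 10 arrays kept that call, with rises of 0.86 to 1.19, while a fit to these 10 arrays alone did not make it (limma adjusted p = 0.0782). Between 4 and 8 h vehicle Gadd45b differed by 0.14 (limma adjusted p = 0.892). From 2 to 4 h the difference was 0.88 ± 0.17 (SE) and did not pass (limma adjusted p = 0.0192). It passed without vehicle 2 h replicate 7 (1.05, limma adjusted p = 0.00638) or replicate 11 (0.99, limma adjusted p = 0.00835). IL-1b means were -0.26, 0.14 and 0.01 at 2, 4 and 8 h, and no pair of IL-1b times passed (limma adjusted p = 0.329, 0.493 and 0.976 for 4 against 2 h, 8 against 2 h and 8 against 4 h).

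Gadd45g was higher after IL-1b at 4 h. Its values were 0.67, 0.96, 0.64, 0.78 and 0.86 in IL-1b 4 h replicates 4, 13, 15, 18 and 22, against -1.28, -0.97, 0.86, -0.76 and -1.97 in vehicle replicates 1, 3, 5, 7 and 17. IL-1b arrays lay close together, and the groups overlapped through vehicle replicate 5 alone, the array that also stood apart in Ddit4. Means were 0.78 ± 0.13 (SD, n = 5) after IL-1b and -0.83 ± 1.05 (SD, n = 5) in vehicle. The difference between IL-1b and vehicle was 1.61 ± 0.31 (SE, 95% interval 0.98 to 2.24, limma adjusted p = 0.00302), and the exact permutation test over the arrays gave p = 0.0317 (two-sided, smallest possible 0.00794).

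The Gadd45g call at 4 h depended on single arrays. Without vehicle 4 h replicate 5 the difference was 2.03 (limma adjusted p = 1.14e-06). The call was lost without vehicle 4 h replicate 1 (1.5, limma adjusted p = 0.0123), replicate 3 (1.57, 0.0108) or replicate 17 (1.32, 0.014). It was also lost without IL-1b 4 h replicate 13 (1.56, limma adjusted p = 0.0104) or replicate 22 (1.59, 0.0101). A fit to the 4 h arrays alone did not make the call (limma adjusted p = 0.0749), nor did a further quantile normalization (1.48, limma adjusted p = 0.0114).

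At 2 h all 5 IL-1b arrays (0.59, 0.66, 0.80, 0.63 and 0.46) lay above all 5 vehicle arrays (-0.31, -0.01, 0.40, 0.25 and -0.25) for Gadd45g. The difference of 0.61 ± 0.31 (SE, 95% interval -0.02 to 1.24) did not pass (limma adjusted p = 0.476), and the exact permutation test gave the smallest p it can, 0.00794 (two-sided). At 8 h the values were -1.05, 0.01 and -0.68 after IL-1b and -0.63, -1.06, -0.38, -0.11 and -0.68 in vehicle, with means of -0.57 in both groups (difference 0.00, 95% interval -0.73 to 0.72, limma adjusted p = 1). IL-1b means thus stood at 0.63, 0.78 and -0.57 at 2, 4 and 8 h, and all 3 IL-1b arrays at 8 h lay below all IL-1b arrays of 2 and 4 h. These differences were -1.20 for 8 against 2 h (limma adjusted p = 0.0331) and -1.36 for 8 against 4 h (limma adjusted p = 0.0343), outside the threshold. Vehicle means were 0.02, -0.83 and -0.57. The vehicle difference between 4 and 2 h was -0.84 (limma adjusted p = 0.305) and passed without vehicle 4 h replicate 5 (-1.26, limma adjusted p = 0.00821). Vehicle at 8 h differed by -0.59 from 2 h and by 0.25 from 4 h, and neither passed (limma adjusted p = 0.55 and 0.89).

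Cdkn1a was higher after IL-1b at 4 and 8 h, and it fell over time in both treatments. At 8 h its values were 0.13, -0.32 and -0.11 after IL-1b (replicates 14, 22 and 26) and -1.80, -1.22, -1.24, -1.08 and -1.28 in vehicle (replicates 1, 9, 13, 17 and 21). The groups lay far apart, and the highest vehicle array was below the lowest IL-1b array by more than the range of either group. Means were -0.10 ± 0.23 (SD, n = 3) after IL-1b and -1.33 ± 0.27 (SD, n = 5) in vehicle, and the difference was 1.23 ± 0.16 (SE, 95% interval 0.90 to 1.56, limma adjusted p = 1.67e-05). Leaving out single arrays gave 1.11 to 1.34, all called, and a fit to the 8 h arrays alone just missed the threshold (limma adjusted p = 0.0105).

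At 4 h Cdkn1a had values of 0.28, 0.38, 0.20, 0.47 and 0.20 after IL-1b and -0.31, -0.06, -0.14, -0.46 and -0.72 in vehicle, again without overlap. The difference was 0.65 ± 0.14 (SE, 95% interval 0.36 to 0.93) and passed narrowly (limma adjusted p = 0.00989). It stayed called without vehicle 4 h replicate 3 or 5 (limma adjusted p = 0.00752 and 0.00847). Leaving out vehicle 4 h replicate 1, 7 or 17 ended the call (0.65, 0.62 and 0.55, with limma adjusted p = 0.0224, 0.0334 and 0.0541). So did leaving out IL-1b 4 h replicate 4, 13, 15, 18 or 22 (0.65, 0.63, 0.67, 0.61 and 0.67, with limma adjusted p = 0.0223, 0.0299, 0.0162, 0.0377 and 0.0168). The call was lost as well with array medians set equal (0.64, limma adjusted p = 0.0199), with a robust estimate of the spread (limma adjusted p = 0.0103) and in a fit to the 4 h arrays alone (limma adjusted p = 0.0152).

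At 2 h the IL-1b arrays (0.36, 0.52, 0.73, 0.62 and 0.57) also lay above every vehicle array (-0.39, 0.06, -0.31, 0.34 and 0.10) for Cdkn1a, with IL-1b replicate 2 the lowest of its group. The difference of 0.60 ± 0.14 (SE, 95% interval 0.32 to 0.89) did not pass (limma adjusted p = 0.066, and 0.036 without IL-1b 2 h replicate 2), while the exact permutation test gave its smallest p, 0.00794 (two-sided).

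In vehicle muscle Cdkn1a averaged -0.04, -0.34 and -1.33 at 2, 4 and 8 h. It fell by 1.28 between 2 and 8 h (SE 0.14, limma adjusted p = 3.36e-06), which is the probe set of rank 5 by p among all, and fell by 0.99 between 4 and 8 h (SE 0.14, limma adjusted p = 0.000687). The vehicle arrays of 8 h overlapped neither those of 2 h nor those of 4 h. IL-1b means were 0.56, 0.31 and -0.10 at the same times. In a fit to the vehicle arrays of 4 and 8 h alone that fall was not called (limma adjusted p = 0.0635). In IL-1b muscle the difference of 8 against 2 h was -0.66 (SE 0.16) and also passed (limma adjusted p = 0.00912). It did so without IL-1b 2 h replicate 2 (-0.71) or IL-1b 8 h replicate 14 (-0.78) but not without IL-1b 2 h replicate 4, 8, 10 or 12 (-0.67, -0.62, -0.65 and -0.66) or IL-1b 8 h replicate 22 or 26 (-0.55 and -0.65, with limma adjusted p = 0.0826 and 0.0347). All 3 IL-1b arrays at 8 h lay below all 5 IL-1b arrays of 2 h. IL-1b muscle at 8 h and vehicle muscle at 2 h differed by 0.06 in Cdkn1a (vehicle 2 h the higher, 95% interval -0.27 to 0.39, limma adjusted p = 0.959).

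**Figure D2:**
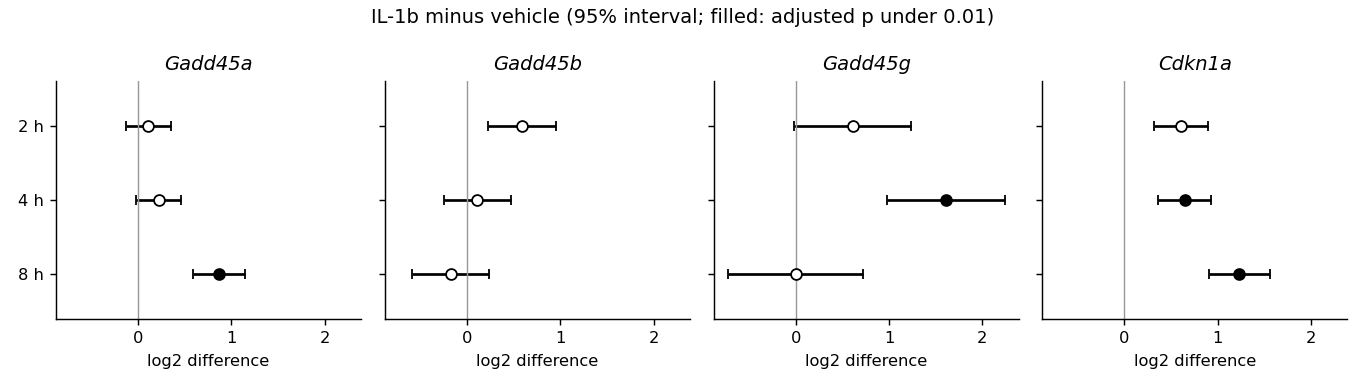
Log2 difference between IL-1b and vehicle (horizontal axis) at 2, 4 and 8 h for each gene, with 95% intervals and filled points where the limma adjusted p was under 0.01. Gadd45a is filled at 8 h, Gadd45g at 4 h and Cdkn1a at 4 and 8 h, and Gadd45b at no time.

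Of the 4 genes 0 were called between IL-1b and vehicle at 2 h with limma, where 0.0729% of all probe sets were called, and 2 had an unadjusted p under 0.05 (10.6% of all probe sets). At 4 h 2 of 4 were called, both higher, against 0.847% of all probe sets in either direction and 0.578% higher. At 8 h 2 of 4 were called, both higher, against 2.09% in either direction and 1.02% higher. IL-1b and vehicle arrays did not overlap for 2 of 4 genes at 2 h (2.41% of probe sets), 1 of 4 at 4 h (3.5%) and 2 of 4 at 8 h (6.67%). In vehicle muscle 0 of 4 were called between 4 and 2 h with limma (0.101% of probe sets), 3 of them having an unadjusted p under 0.05 (11.2%), then 2 of 4 between 8 and 2 h (0.852%), 1 higher (0.336%) and 1 lower (0.516%), and 1 of 4 between 8 and 4 h, lower (0.129% in either direction, 0.0336% lower). Vehicle arrays did not overlap for 0, 2 and 1 of 4 genes in these comparisons (2.57%, 2.44% and 2.19% of probe sets). In IL-1b muscle 2 of 4 were called between 8 and 2 h (3.95%), 1 higher (1.58%) and 1 lower (2.37%), and 0 of 4 between 4 and 2 h (1.02%) or 8 and 4 h (1.17%) with limma, where 2 and 3 had an unadjusted p under 0.05 (11.8% and 10.3% of all probe sets). IL-1b arrays did not overlap for 1 of 4 genes between 4 and 2 h (5.93%), 3 of 4 between 8 and 2 h (15.8%) and 3 of 4 between 8 and 4 h (6.62%).

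**Figure D3:**
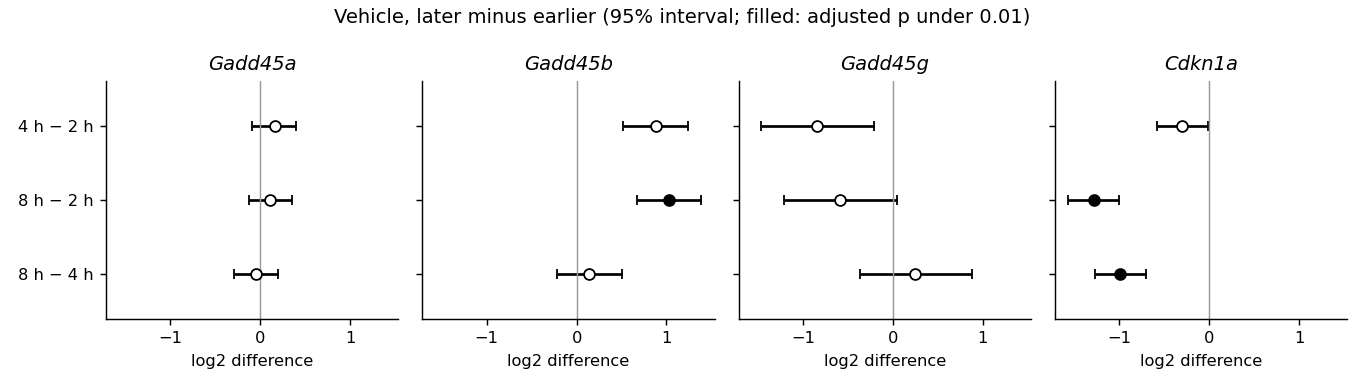
Log2 difference between vehicle arrays of a later and an earlier time (horizontal axis), with 95% intervals and filled points where the limma adjusted p was under 0.01. Gadd45b lies to the right of 0 and Cdkn1a to the left in the comparison of 8 with 2 h.

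Whether the IL-1b difference itself changed between times was tested in the same model, and 0 of 4 genes passed for any pair of times with limma. The share of all probe sets called was 0.0505% for 4 against 2 h, 0.527% for 8 against 2 h and 0.174% for 8 against 4 h, and 1, 3 and 3 of the 4 genes had an unadjusted p under 0.05 (10%, 11.1% and 7.13% of all probe sets). The closest was Gadd45a, whose difference was larger at 8 h than at 2 h by 0.76 ± 0.18 (SE, limma adjusted p = 0.0309). It passed without vehicle 8 h replicate 13 (0.87, limma adjusted p = 0.00345). The Gadd45g difference was smaller at 8 h than at 4 h (-1.61 ± 0.47 SE, limma adjusted p = 0.153), and passed without vehicle 4 h replicate 5 (-2.03, limma adjusted p = 0.00154). For Gadd45b the change from 2 to 8 h was -0.76 ± 0.27 (SE, limma adjusted p = 0.222) and for Cdkn1a 0.63 ± 0.21 (SE, limma adjusted p = 0.201). The time at which a gene passed is therefore not shown to be the only time at which it differed.

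Ordered by group mean, Gadd45a stood highest in IL-1b muscle at 8 h, then IL-1b at 4 h, vehicle at 4 h, IL-1b at 2 h, vehicle at 8 h and vehicle at 2 h, and no neighbours in that order passed. The step between the first pair was 0.60 (95% interval 0.32 to 0.88, limma adjusted p = 0.0121). Gadd45b ran from vehicle at 8 h over IL-1b at 4 h, vehicle at 4 h, IL-1b at 8 h and IL-1b at 2 h to vehicle at 2 h, again with no neighbours that passed. Gadd45g ran from IL-1b at 4 h over IL-1b at 2 h, vehicle at 2 h, vehicle at 8 h and IL-1b at 8 h to vehicle at 4 h, and none passed. For Cdkn1a the order was IL-1b at 2 h, IL-1b at 4 h, vehicle at 2 h, IL-1b at 8 h, vehicle at 4 h and vehicle at 8 h. There the step from vehicle at 4 h down to vehicle at 8 h passed, and it is the fall given above.

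Over the 28 arrays, which share groups and processing, Pearson's r was 0.62 between Gadd45g and Cdkn1a and 0.43 between Gadd45a and Gadd45b, and from -0.28 to 0.08 for the remaining pairs. Without the 3 arrays of widest spread these were 0.65, 0.45 and -0.21 to 0.07. Within groups, after subtraction of each group's mean, r was 0.48 between Gadd45a and Gadd45b, 0.45 between Gadd45a and Gadd45g and 0.26 between Gadd45g and Cdkn1a. It was 0.27 between Gadd45b and Gadd45g, -0.19 between Gadd45a and Cdkn1a and -0.1 between Gadd45b and Cdkn1a. These correlations are descriptions over arrays and were not tested.

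The 3 genes most like each by Pearson's r over the 28 arrays are given as a description. They were chosen on the same arrays, so their differences between IL-1b and vehicle follow from the choice and carry no test. For Gadd45a they were Cyp27a1 (r = 0.95), a mitochondrial sterol hydroxylase, Prodh (0.93), which starts proline breakdown, and the lysophospholipase gene Pnpla7 (0.91). Their differences at 8 h were 0.65, 0.88 and 0.49. For Gadd45g they were the small GTPase gene Rhob (0.89), Zfp36 (0.88), whose protein promotes decay of cytokine mRNAs, and Ddit4 (0.87). Their differences at 4 h were 0.44, 1.09 and 3.14. For Cdkn1a they were Igfbp3 (0.90), a carrier of insulin-like growth factors, the glycogen-targeting phosphatase subunit gene Ppp1r3c (0.87) and the clock-related repressor gene Nfil3 (0.84). Their differences at 8 h were 0.49, 1.85 and 1.05. Gadd45b had weaker likenesses, Zc3h6 (0.81), the tRNA-modifying enzyme gene Qtrt2 (0.73) and the thiamine transporter gene Slc19a2 (0.73), with differences from -0.01 to 0.28 over the 3 times. Without the 3 arrays of widest spread the 12 correlations were 0.72 to 0.92.

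In the lists that follow, the shares of all probe sets at an unadjusted p under 0.05 were 10.6%, 8.78% and 12.9% for IL-1b against vehicle at 2, 4 and 8 h, and the shares called were 0.0729%, 0.847% and 2.09%. There, rose and fell mean higher and lower after IL-1b than after vehicle at the same time, unless vehicle times are named. p53 target genes were compared because p53 is the classical inducer of Cdkn1a and Gadd45a. Of 24 measured targets 0 passed at 2 h, 1 rose at 4 h (Trp53inp1, a p53-induced nuclear protein, 0.78 ± 0.11 SE, limma adjusted p = 4.85e-05) and 1 rose at 8 h (Sesn1, sestrin 1, 1.56 ± 0.18 SE, limma adjusted p = 3.23e-06). At an unadjusted p under 0.05 there were 5, 6 and 7 of the 24, a larger share than over all probe sets at each time, which was not tested. Sesn1 differed by 0.40 and 0.49 at 2 and 4 h, and Trp53inp1 by 0.44 at 2 h and 0.50 at 8 h, without passing. The direction was mixed, with 16, 15 and 13 of the 24 differences above 0 at 2, 4 and 8 h. Btg2, an antiproliferative gene, differed by 0.37, 0.61 and 0.77 at 2, 4 and 8 h and did not pass (limma adjusted p = 0.431, 0.0436 and 0.0115). Plk2 was lower, by -0.21, -0.46 and -0.36, and did not pass (limma adjusted p = 0.51, 0.0415 and 0.17). Tigar differed by -0.40 at 8 h (limma adjusted p = 0.244). Mdm2, the ubiquitin ligase of p53 and itself a target, differed by 0.12, 0.16 and -0.01 at 2, 4 and 8 h, and Ccng1 (cyclin G1) by 0.05, -0.02 and -0.01, none of which passed (limma adjusted p from 0.691 to 0.991). The medians of the list were 0.06, 0.01 and 0.07, beside -0.02, 0.00 and 0.00 over all probe sets. Trp53 had no probe set with a single symbol.

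The 7 remaining CDK inhibitors (Cdkn1b, Cdkn1c, Cdkn2a, Cdkn2b, Cdkn2c, Cdkn2d and Cdkn3) had 0 members called with limma in any comparison of IL-1b with vehicle, 0 at an unadjusted p under 0.05, and differences from -0.15 to 0.12. Of 24 cyclin, CDK and replication genes 0 passed at 2 and 4 h with limma (4 and 2 at an unadjusted p under 0.05, and 5 at 8 h). At 8 h Ccnd1 (cyclin D1, the partner of CDK4 and CDK6) fell by 0.82 (SE 0.16, limma adjusted p = 0.00186) and Mcm7, a subunit of the replicative helicase, rose by 0.32 ± 0.06 (SE, limma adjusted p = 0.00133). The proliferation marker Mki67 differed by 0.03, 0.02 and -0.04, Cdk1 by -0.06, -0.01 and 0.08, and Pcna by 0.05, -0.01 and -0.11, none passing. Of 14 MAP kinase genes downstream of or bound by GADD45 proteins 0 passed at any time with limma (0, 1 and 4 at an unadjusted p under 0.05). The 4 with an unadjusted p under 0.05 at 8 h were Map2k3, which was higher (0.34), and Map3k5, Map2k6 and Mapk11, which were lower (-0.24, -0.29 and -0.26). Map3k4, the kinase that GADD45 proteins activate, differed by 0.03, 0.02 and -0.09, and Mapk14 (p38 alpha) by 0.00, -0.04 and -0.01. Of 10 genes for DNA demethylation and repair 0 passed at 2 and 4 h with limma (1 at each time at an unadjusted p under 0.05), and 1 passed at 8 h (4 at an unadjusted p under 0.05). That gene was Dnmt3a, a DNA methyltransferase, which fell by 0.52 (SE 0.08, limma adjusted p = 0.000109). In vehicle Dnmt3a fell between 2 and 8 h (-0.41, limma adjusted p = 0.000983), and Tet3, a methylcytosine dioxygenase, rose between 4 and 8 h (0.54, limma adjusted p = 0.00701).

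A list of 24 measured genes held transcription factors known to act on the 4 genes, with the other regulators Hdac4, Hdac5 and Brca1. With limma 0 of the 24 passed at 2 h (2 at an unadjusted p under 0.05), 2 rose at 4 h and 6 rose at 8 h (0.578% and 1.02% of all probe sets were called higher), and 0 fell. At an unadjusted p under 0.05 there were 8 at 4 h and 9 at 8 h. Foxo1 rose at 4 h (1.03 ± 0.09 SE, limma adjusted p = 6.72e-08) and 8 h (1.23 ± 0.10 SE, limma adjusted p = 2.16e-08), and Foxo3 at the same times (0.48 and 0.79, limma adjusted p = 0.00292 and 1.78e-05). Klf15, a glucocorticoid-induced factor, rose by 1.30 ± 0.16 at 8 h, Cebpb by 0.90 ± 0.16, Myc, which represses Cdkn1a, by 0.74 ± 0.14 and Klf6, an activator of Cdkn1a, by 0.69 ± 0.12 (SE, limma adjusted p = 5.76e-06, 0.000739, 0.00149 and 0.000769). Atf4 and Hdac4, which in mouse muscle are needed for Gadd45a induction by fasting and by denervation, differed by 0.23 and -0.10 at 8 h and did not pass (limma adjusted p = 0.426 and 0.824). Ddit3, an ATF4 target, differed by -0.47 at 8 h (limma adjusted p = 0.0346). Nr3c1, the glucocorticoid receptor, differed by 0.11, -0.16 and -0.19, and Myog (myogenin, which with HDAC4 marks denervation) by -0.18, 0.01 and -0.02, without passing. The arrays measure RNA, so the amount and activity of the encoded proteins were not tested. Klf4, another activator of Cdkn1a, differed between IL-1b and vehicle by -0.45, 0.01 and 0.15 at 2, 4 and 8 h. None of these passed (limma adjusted p = 0.0941, 0.99 and 0.789). Between vehicle times Klf4 was lower at 4 h than at 2 h (-0.65, limma adjusted p = 0.00569) and at 8 h than at 2 h (-0.72, limma adjusted p = 0.000572). Vehicle Klf4 at 8 h differed by -0.06 from 4 h (limma adjusted p = 0.939). Smad3 (-0.49) and Myod1 (-0.55) also fell between 2 and 8 h in vehicle (limma adjusted p = 0.00627 and 0.0094).

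**Figure D4:**
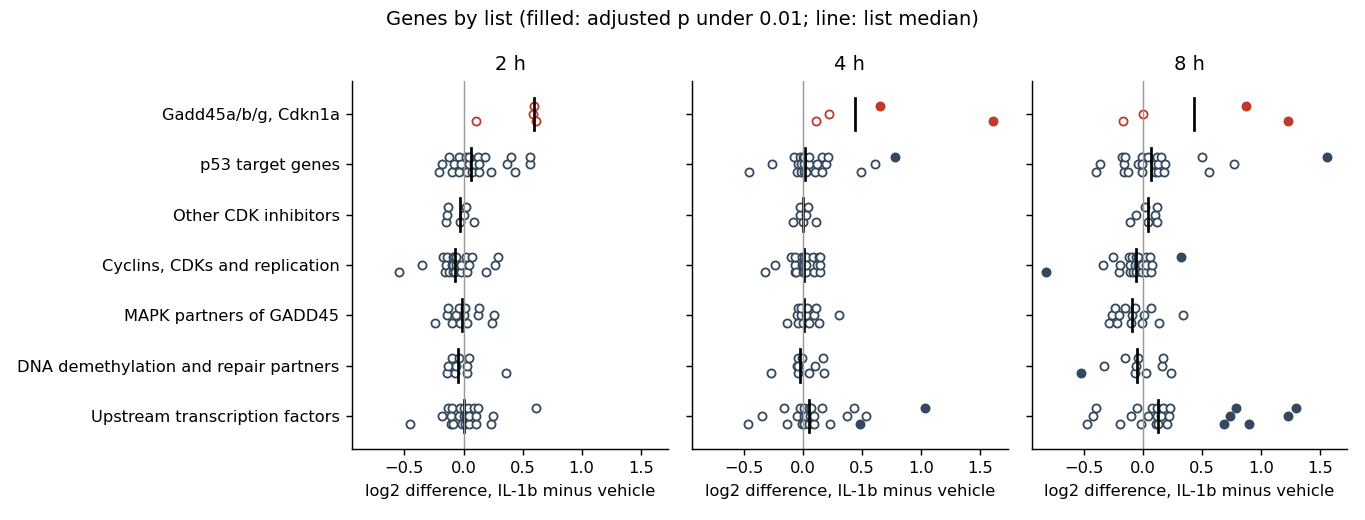
Log2 difference between IL-1b and vehicle (horizontal axis) at 2, 4 and 8 h for the 4 genes (red) and the members of 6 lists (dark blue), with filled points where the limma adjusted p was under 0.01 and a black line at each list's median. Filled points at 8 h include Sesn1 at 1.56 among p53 targets and Ccnd1 at -0.82 among cyclins, while the 7 other CDK inhibitors lie within 0.15 of 0.

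Whole muscle holds several cell types, and in bulk RNA a changed number of cells of a type and a changed amount of RNA per cell cannot be told apart. Fast and slow myosin heavy chain genes had no probe set with a single symbol. The mean centred value of 11 muscle fibre markers ran from -0.0798 to 0.0473 on IL-1b arrays and from -0.0801 to 0.0261 on vehicle arrays at 8 h, with 0 of 11 called at any time with limma. The mean of 11 neutrophil markers ran from -0.00578 to 0.668 on IL-1b arrays against -0.152 to -0.00606 on vehicle arrays at 2 h, from 0.128 to 0.39 against -0.153 to 0.0555 at 4 h, and from 0.0722 to 0.277 against -0.234 to 0.135 at 8 h, with overlap at 8 h. The median differences of the 11 were 0.24, 0.12 and 0.04, and 8, 4 and 1 had an unadjusted p under 0.05. At each time 1 of the 11 was called, Retnlg at 2 h (1.28) and Lcn2, which other cells make as well, at 4 and 8 h (2.05 and 2.41). At 8 h the differences of the 10 markers other than Lcn2 were 0.00 to 0.10. Of 9 monocyte and macrophage markers 0 were called with limma at any time, and the means at 8 h were 0.0602 to 0.207 on IL-1b arrays and -0.0695 to 0.0309 on vehicle arrays. At 2 h those means were -0.219 to -0.0845 on IL-1b arrays and -0.0666 to 0.197 on vehicle arrays. An unadjusted p under 0.05 was found for 3, 4 and 2 of these 9 at 2, 4 and 8 h. The direction changed with time, with 0, 6 and 9 of the 9 differences above 0 and medians of -0.21, 0.02 and 0.05. Of 12 endothelial markers 2 fell at 4 h, Kdr and Eng (-0.94 and -0.46), and at 2 h 0 were called with limma (4 at an unadjusted p under 0.05), with all 12 differences below 0 and a median of -0.15. At 4 and 8 h 6 and 5 of the 12 had an unadjusted p under 0.05, in both directions. The higher ones were Esam at 4 h (0.29) and Flt1 and Robo4 at 8 h (0.22 and 0.23). At these times 3 and 5 of the 12 differences were above 0, with medians of -0.13 and -0.10. Of 11 fibroblast and matrix markers 0 were called with limma, while 9, 0 and 8 had an unadjusted p under 0.05 at 2, 4 and 8 h. Their median differences were -0.47, -0.13 and -0.58 at these times, with 1, 1 and 2 of the 11 differences above 0. Of 8 adipocyte markers 0 were called with limma (0, 2 and 0 at an unadjusted p under 0.05). Their median differences were -0.34, -0.37 and 0.21 at 2, 4 and 8 h, with 2, 0 and 7 of the 8 above 0. Their list means at 8 h were -0.344 to 1.17 on IL-1b arrays and -0.36 to 0.225 on vehicle arrays. Of 8 satellite cell markers 1 was called at 2 h (Vcam1, also an endothelial gene, 1.63) and 1 at 8 h (Sdc4, 0.67). At 2, 4 and 8 h 2, 2 and 3 of the 8 had an unadjusted p under 0.05. Their median differences were -0.01, 0.05 and -0.06, with 4, 5 and 3 of the 8 above 0. Pax7 differed by -0.20, -0.09 and -0.25 and Cd34 by -0.14, -0.19 and -0.44, none passing. Centred values do not show which of these markers are near 0, and the part of other cells in the differences of the 4 genes was not tested.

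The design text describes a selection by an analysis of variance over the 6 groups at a false discovery rate of 1%, followed by a fold threshold of 1.75 at any time. Run with limma's moderated F, it took 122 probe sets (0.684%). Gadd45a, Gadd45g and Cdkn1a were among them, with largest changes of 1.82-fold, 3.05-fold and 2.34-fold. Gadd45b passed the F-test (limma adjusted p = 0.000819) but changed by at most 1.5-fold between IL-1b and vehicle.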

How the data were processed

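Total RNA of skeletal muscle was fragmented and biotin-labelled with an Affymetrix whole-transcript kit, per the labels' protocols. RMA was run on the 28 arrays and mm9 is the build, per the submitters' processing notes, which name no RMA version. The values the authors deposited are read as log2, RMA's usual scale. They cover 17831 probe sets, with 0 missing values, and each probe set has a median of 0 over the arrays. Signal over background cannot be read from centred values, and the number of arrays limits the precision. Names came from the platform annotation (15620 probe sets with 1 symbol, 1370 with several, 841 with none listed here).

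A model of the 6 groups was fitted to all arrays with limma 3.58.1 in R 4.3.3, with moderated variances and Benjamini-Hochberg adjustment over all probe sets of a comparison. It was checked on simulated data. Groups and replicate numbers came from the sample titles, and in 1 title number and time have no separator. Replicate numbers shared between vehicle times were not used as pairs, since no label gives them a meaning and not every pair of arrays deviated together. The members, the 13 lists (197 entries, 173 measured, the lowest probe set number where a gene has several) and the rules for named genes were chosen with earlier results of these data known. Named are all 4 genes, at most 4 called members of a list per comparison, counts of 5 or fewer, and the 3 genes of highest correlation per member, with predicted, Riken and Gm genes passed over. Other list members were named after their values were seen, for their known role or to show differences in the other direction. Alternatives were other normalization, spread, array sets, weights and blocks.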

Additional observations from a re-analysis of the deposited data

Results flagged for a closer look

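Among 20 sets of 5 arrays (4 genes in 5 groups), 2 had an extreme array far from the rest of its group, and chance marks about 1 in 20. Vehicle 8 h replicate 13 had a Gadd45a of 0.36, far above the next vehicle array at -0.16. Vehicle 8 h replicate 1 had a Cdkn1a of -1.80, far below the next at -1.28, and is one of the 3 arrays of widest spread. Both differences at 8 h remained called without these arrays.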

How the results depend on the processing

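Of 360 values of the 4 genes under alternatives other than leaving out single arrays, 334 kept their direction and their side of the threshold, 16 lost it, 9 gained it and 1 reversed, and of 88 counts of called probe sets 53 stayed within 1.5 times. Not all of the lost and gained calls of the 4 genes are named below. Array weights, estimated gene by gene because the default method did not converge, raised the counts for IL-1b against vehicle to 80, 450 and 836 at 2, 4 and 8 h (13, 151 and 373 as reported), for vehicle times (4 against 2, 8 against 2, 8 against 4 h) to 31, 276 and 87 (18, 152 and 23), for the change of the IL-1b difference to 63, 192 and 164 (9, 94 and 31) and for IL-1b times to 779, 1903 and 621 (182, 704 and 209). Quantile normalization gave 26 at 2 h, 130 at 8 h, 28 and 8 for vehicle 4 against 2 h and 8 against 4 h, 12 and 7 for the change from 2 to 8 h and 4 to 8 h, and 303 and 66 for IL-1b 4 against 2 h and 8 against 4 h. Fits to the groups compared gave 0, 98 and 37 at 2, 4 and 8 h, 0, 19 and 0 for vehicle times, 25 for the change from 2 to 8 h, and 316 and 47 for IL-1b 8 against 2 h and 8 against 4 h. Without the 3 arrays of widest spread there were 8 at 2 h, 11 for vehicle 4 against 2 h and 33 for the change from 2 to 8 h.

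Calls lost at 4 h were Cdkn1a with a robust spread (0.65), equal medians (0.64) and its groups alone (0.65), and Gadd45g with quantile normalization (1.48) and its groups alone (1.61). At 8 h they were Gadd45a with quantile normalization (0.65) and its groups alone (0.87) and Cdkn1a with its groups alone (1.23). In vehicle they were Gadd45b at 8 against 2 h (1.03) and Cdkn1a at 8 against 4 h (-0.99), each with its groups alone, where fewer arrays give fewer residual degrees of freedom. Gadd45b at vehicle 4 against 2 h passed with array weights (0.84) and without the 3 widest arrays (1.05). At 2 h Gadd45g (0.61) and Cdkn1a (0.60) passed the unadjusted exact permutation test (p = 0.00794), as did, in vehicle, Gadd45b at 4 against 2 h (p = 0.0159) and Gadd45g at 8 against 2 h (p = 0.0317), neither called with limma. Gadd45g at 8 h stood at 0.00 and turned sign with quantile normalization (0.00). The cause of these changes was not tested.

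IL-1b and vehicle arrays of one time share no replicate number, and over 7 same-numbered vehicle pairs the deviations correlated from -0.43 to 0.68, with 3 over 0.1. With the replicate number as a block, vehicle arrays alone gave 0, 5 and 0 called for 4 against 2 h, 8 against 2 h and 8 against 4 h. Gadd45b was then 1.43 and Cdkn1a -1.28 for 8 against 2 h, and Cdkn1a -1.03 for 8 against 4 h, none called with the block.

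Leaving out single arrays gave 2 to 40, 93 to 166 and 254 to 386 called at 2, 4 and 8 h, 5 to 22, 79 to 169 and 6 to 26 for vehicle times, 2 to 27, 44 to 102 and 21 to 37 for the change of the IL-1b difference, and 108 to 193 for IL-1b 8 against 4 h. Gadd45g ran from 1.32 to 2.03 at 4 h and -0.29 to 0.24 at 8 h, and Cdkn1a from 0.55 to 0.72 at 4 h. In vehicle, 4 against 2 h, Gadd45b ran from 0.72 to 1.05 and Gadd45g from -1.26 to -0.55. For 8 against 2 h Gadd45a ran from -0.01 to 0.18, and for 8 against 4 h Gadd45a from -0.16 to 0.01 and Gadd45g from -0.03 to 0.68. The change of the IL-1b difference ran from -0.05 to 0.13 for Cdkn1a (2 to 4 h), 0.63 to 0.87 for Gadd45a (2 to 8 h) and -2.03 to -1.32 for Gadd45g (4 to 8 h). Cdkn1a in IL-1b muscle ran from -0.78 to -0.55 for 8 against 2 h. Centred values hide which probe sets lie near background.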
